A study of Cicer arietinum with 12 samples.

Results

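The 72 genes described here are those whose transcripts were strongly lower under drought in leaves of both chickpea (Cicer arietinum) genotypes studied. They are 72 of the 27047 genes listed under a LOC identifier in both of the authors' deposited DESeq2 tables, or 0.266%, and those tables hold 27233 genes in all. A gene was taken when R was at or below -2 in both genotypes and every drought value lay below every well-watered value in both. R is the log2 of the mean normalized count under drought plus 5, over the mean well-watered normalized count plus 5. The rule also left out 4 identifiers by name, and none of them met its thresholds. The size and direction of the drought difference therefore chose the genes, and they are given below as a description without a test.

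Leaf RNA was sequenced at the shoot apical meristem stage from 4 groups of 3 libraries, 12 in all. ICC283, labelled drought sensitive, and ICC8261, labelled drought tolerant, were each grown in pots in one glasshouse, with soil kept at 80% of field capacity (well-watered) or at 20% (drought). No transgene, mutation or other agent is named for any group. Pots were assigned to treatments at random. Nothing in the labels ties a library to a pot of its own, and the p-values below speak only for the spread between libraries, which may be technical. Each genotype stands for itself, since 1 genotype of each kind was grown. The files assigned between 8910704 and 12192098 read counts per library to genes. The symbols set aside to check for leaf tissue (rbcL, psbA, RBCS and others) matched no feature, so the label was checked only against atpF, petB, petD and ndhA, chloroplast genes chosen after the files were seen. Together these took between 34277 and 66001 CPM (counts scaled for library size), a level of chloroplast transcripts that green tissue holds. In bulk leaf RNA, fewer cells of a type and less RNA per cell cannot be told apart.

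Water deficit slows leaf growth early, and the enlargement of growing cells depends on turgor and on loosening of the cell wall. Expansins are wall proteins that loosen the bonds between wall polymers so that the wall can extend, and xyloglucan endotransglucosylases cut and rejoin one class of those polymers. Actin and tubulin form the cytoskeleton that guides where new wall is laid down. Of the 72 genes, 1 has a symbol in the RefSeq gene table of assembly Cicar.CDCFrontier_v2.0, namely EXPA1, an expansin. The table holds 71 of them, 70 as protein-coding genes and 1 (LOC101503638) as a pseudogene, and does not hold LOC101503597. The sources used here name no product for the other identifiers, so no role is given to them. Among the 70 protein-coding members 62 (88.6%) have a single annotated transcript, against 73.0% of the 22583 protein-coding LOC genes of the files.

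For 4 libraries, the tables and the count files name opposite treatments. What the tables call ICC283 well-watered library 3 is the count file labelled ICC283 drought library 3, while their ICC283 drought library 3 is the file labelled ICC283 well-watered library 3. The reads in the column for ICC8261 well-watered library 1 are those of the count file labelled ICC8261 drought library 2, and those in the column for ICC8261 drought library 2 are in the count file labelled ICC8261 well-watered library 1. The rule was applied to the tables, and libraries are named below as the tables name them. With the count files' labels the rule found 2 genes, neither of them among the 72. With the 8 libraries on which both sources agree it found 54 genes, of which 41 are among the 72. By the tables' labels the median member kept 7.10% of its well-watered mean level under drought in ICC283 and 18.4% in ICC8261, while by the count files' labels those medians were 81.2% and 65.8%. With the 8 agreed libraries alone they were 4.24% and 21.7%. No label or header says which is right. On the first principal component of all tested genes, which holds 51.4% of the variance, the 4 libraries lay on the side of the treatment the tables name. ICC283 drought 3 and ICC8261 drought 2 were at 56.4 and 36.4, and ICC283 well-watered 3 and ICC8261 well-watered 1 at -58.6 and -66.3. Within each genotype, every library the tables call drought lay above every one they call well-watered.

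ICC283 well-watered libraries 1 and 2 stand apart from the rest for other genes too. On the second principal component of all tested genes, which holds 17.4% of the variance, they lie at 79.6 and 61.5, and the next library, ICC283 well-watered 3, lies at 20.9.

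Summed over the 72 genes, levels fell into 2 separate ranges within each genotype, as the rule required of each gene. The sums were 2233, 3106 and 4168 CPM in the 3 well-watered ICC283 libraries and 130.3, 202 and 385 CPM under drought. In ICC8261 they were 4773, 4334 and 4075 CPM well-watered and 655, 432 and 1202 CPM under drought. The genes thus made up between 0.195% and 0.513% of all gene counts well-watered and between 0.0124% and 0.124% under drought. The drought sums of ICC8261 all lay above those of ICC283, and so did 2 of its well-watered sums above the highest well-watered ICC283 sum, the third lying at 4075 against 4168 CPM. The percentage of reads counted as not unique also moved with treatment in the agreed libraries, from 44.1% to 50.6% well-watered and from 50.5% to 53.5% under drought, and its part in these levels was not tested.

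**Figure D1:**
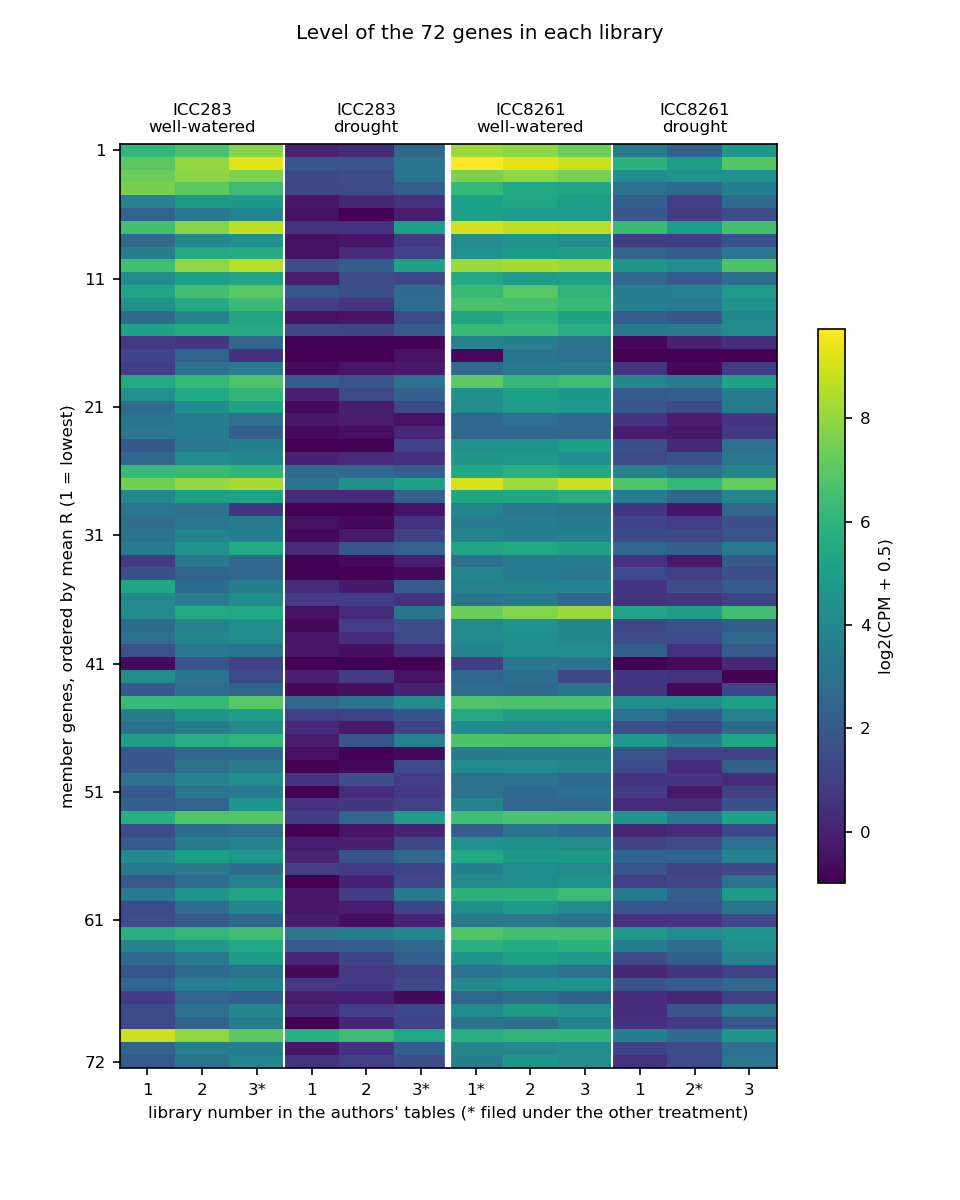
Level of each of the 72 genes (rows, ordered by mean R) in each of the 12 libraries (columns) as log2(CPM + 0.5), with stars on the 4 libraries whose count file carries the other treatment. Rows are brighter in the well-watered columns of both genotypes, and the ICC8261 drought columns are brighter than the ICC283 drought columns in most rows.

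The size of the fall differed among members and between genotypes. R ranged from -6.02 to -2.02 in ICC283, with a median of -3.11, and from -4.06 to -2.002 in ICC8261, with a median of -2.25. Over the 16205 genes with a mean well-watered normalized count of at least 15 in both genotypes the median R was -0.04 in ICC283 and -0.01 in ICC8261. R was lower in ICC283 for 66 of the 72 genes, and 43 were at or below -3 there against 9 in ICC8261. The threshold was met by many more genes in ICC283, where 565 LOC genes met both parts of the rule, than in ICC8261, where 111 did. The 72 shared genes are 12.7% of the first list and 64.9% of the second. The order of R between genotypes among the members is thus not independent of the rule. The share of all genes with R lower in ICC283 was not computed.

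R understates the fall of rare transcripts, because 5 is added to both means. The mean drought value was below that addition for 17 members in ICC283 and for 2 in ICC8261. At the threshold, the nearest members inside were LOC101498965, LOC101492853 and LOC101501552, whose larger R was -2.002, -2.02 and -2.02. The nearest genes outside were LOC101515337 at -1.99, LOC101500896 at -1.98 and LOC101490642 at -1.98, so the edge of the group is not a gap in the data.

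**Figure D2:**
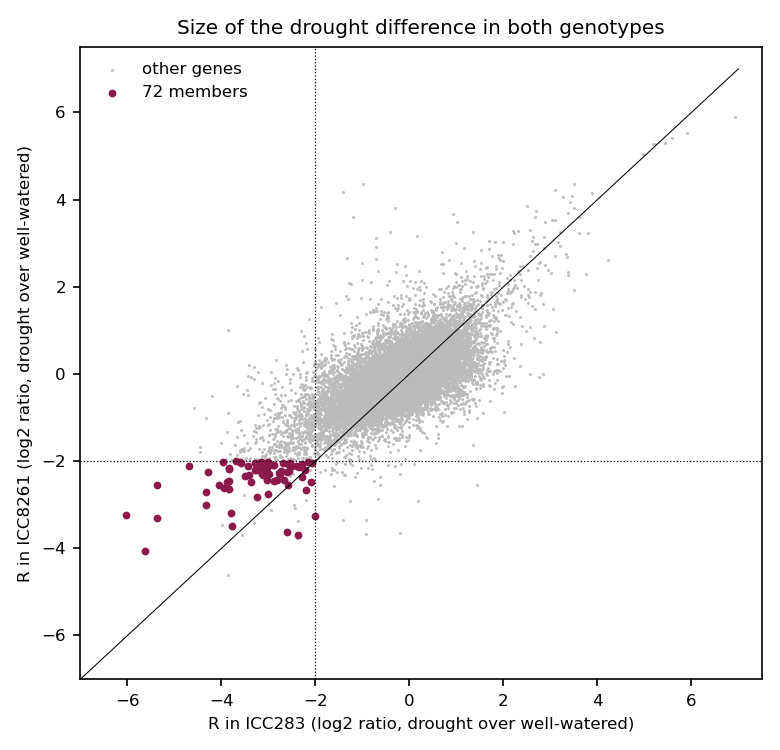
R in ICC283 (horizontal) against R in ICC8261 (vertical), both log2 ratios of drought over well-watered, for every gene in both tables, with the 72 members in dark red. Dotted lines mark the threshold of -2, and most members lie above the diagonal, where R is lower in ICC283.

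EXPA1 (LOC101513870), the one member with a symbol, had R at -3.04 in ICC283 and -2.44 in ICC8261, close to the medians of the members. Its well-watered levels were 10.8, 22.1 and 45.2 CPM in ICC283 and 38.2, 40.9 and 34.8 CPM in ICC8261. Under drought they were 0.705, 2.93 and 4.72 CPM in ICC283 and 5.75, 4.28 and 10.05 CPM in ICC8261. ICC283 well-watered library 1 is the lowest of the well-watered libraries, and the ICC8261 drought range overlaps that of ICC283.

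The lowest mean R over both genotypes belonged to LOC101491845, LOC101493286 and LOC101496585, which were also among the members with the most counts. LOC101491845 stood at 68.3, 101 and 222 CPM in well-watered ICC283 and at 0.504, 0.710 and 5.38 CPM under drought. In ICC8261 it stood at 289, 241 and 161 CPM well-watered and at 10.7, 4.79 and 24.8 CPM under drought, so that 5.84% of its well-watered mean remained there and 1.68% in ICC283. The highest ICC283 drought value is that of library 3, one of the libraries of conflicting treatment.

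LOC101493286 was the most strongly lowered in ICC283, with R at -6.02. It was at 126, 252 and 622 CPM well-watered and at 2.92, 2.93 and 8.35 CPM under drought. In ICC8261 it was at 849.7, 629 and 464 CPM well-watered and kept 57.5, 30.5 and 119.7 CPM under drought. Its drought levels in ICC8261 were thus all above those in ICC283, and its lowest well-watered ICC283 level was close to its highest ICC8261 drought level.

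LOC101496585 was the steadiest of these. It was at 157, 235 and 193 CPM in well-watered ICC283 and at 198, 239.6 and 187 CPM in well-watered ICC8261. Under drought it was at 2.01, 2.31 and 8.46 CPM in ICC283 and at 18.8, 22.2 and 21.01 CPM in ICC8261. The well-watered ranges of the genotypes overlap and the drought ranges do not.

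LOC101508692, LOC101492179 and LOC101496637 complete the 6 members with the highest normalized counts in the well-watered columns. LOC101508692 was at 92.7, 218 and 414 CPM in well-watered ICC283 and at 1.01, 0.977 and 33.5 CPM under drought. Its ICC283 drought library 3 thus lay far above libraries 1 and 2. In ICC8261 it was at 510.0, 413 and 397 CPM well-watered and at 77.0, 29.6 and 95.2 CPM under drought. LOC101496637 kept the most of these, 8.11% of its well-watered mean in ICC283 and 24.6% in ICC8261, where drought levels were 108, 67.5 and 142 CPM against 541, 286 and 467 CPM.

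**Figure D3:**
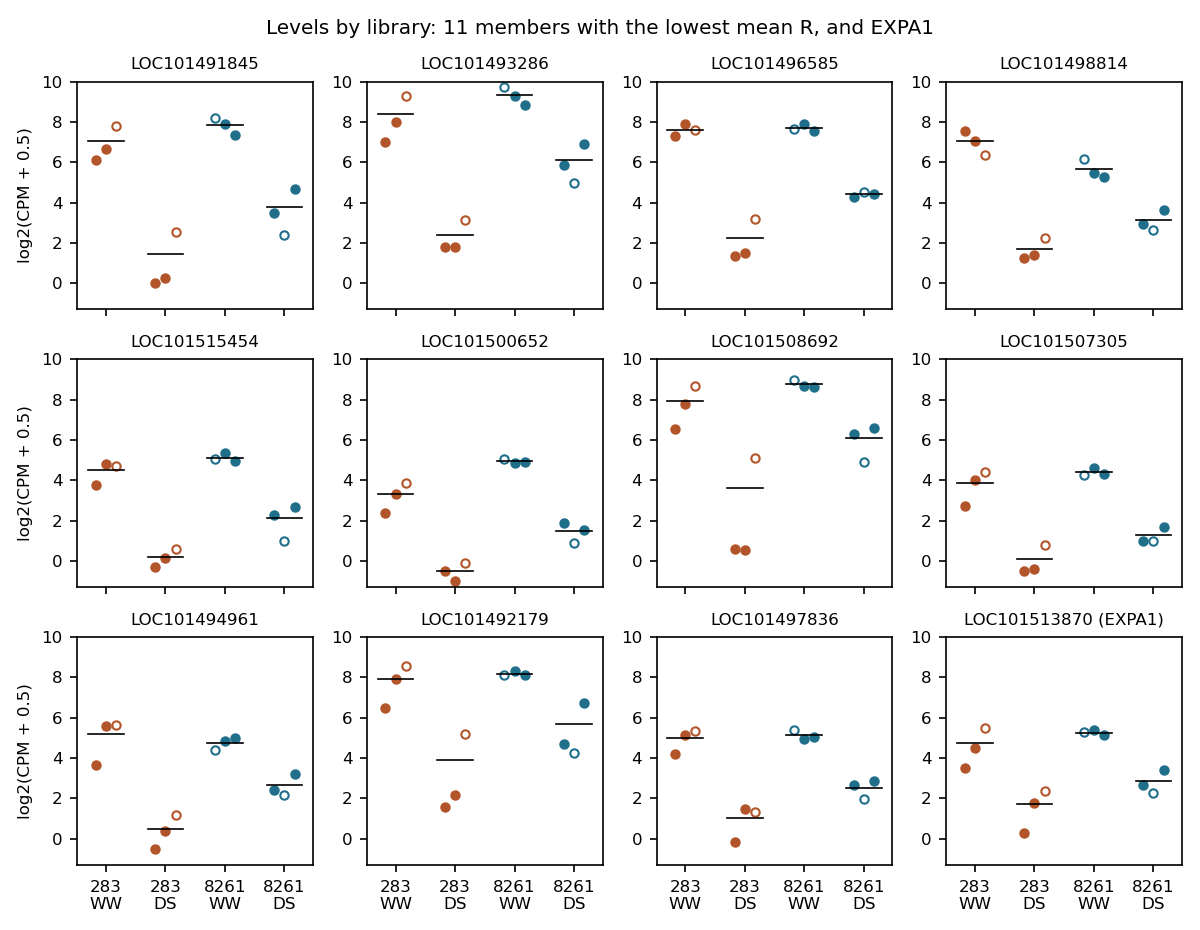
Level in each library as log2(CPM + 0.5) for the 11 members with the lowest mean R and for EXPA1, in ICC283 (brown) and ICC8261 (blue), well-watered (WW) and drought-stressed (DS). Open points are the 4 libraries of conflicting treatment, bars are the log2 of the mean CPM plus 0.5, and in each panel the drought points of a genotype lie below its well-watered points.

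Most of the remaining members of the 12 lowest were less abundant. LOC101498814 had a mean of 133 CPM in well-watered ICC283, against 131 CPM for LOC101491845, but 50.5 CPM in well-watered ICC8261. LOC101515454, LOC101500652, LOC101507305, LOC101494961 and LOC101497836 had well-watered levels between 4.68 and 49.0 CPM and drought levels between 0 and 8.77 CPM over all libraries of both genotypes. LOC101494961 had the most unequal R of these, -4.70 in ICC283 against -2.12 in ICC8261. LOC101489665, with R at -4.30 and -2.25, differed between genotypes in the same direction, and so did LOC101498814 at -5.37 and -2.54. LOC101508247, which is not among the 12 lowest, did so too, at -3.97 and -2.02.

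A few members had R in the other order or reached 0. LOC101489976 had 0 counts in every ICC283 drought library but only 1.25, 1.17 and 5.23 CPM well-watered, and it stood at 13.1, 11.9 and 7.65 CPM in well-watered ICC8261. LOC101510786 also had 0 counts in every ICC283 drought library, and 0.104 CPM in ICC283 well-watered library 1, so 1 library separates from 0 by hardly any reads. LOC101504245 had 0 counts in every ICC8261 drought library and 0.0908 CPM in ICC8261 well-watered library 1, against 8.44 and 7.03 CPM in libraries 2 and 3. For these 3 genes R was lower in ICC8261 than in ICC283. With 5 added, their well-watered counts in ICC283 let R there fall no lower than -2.60, -2.02 and -2.57. Their R in ICC8261 was -3.64, -3.27 and -3.69, so for these 3 genes the order of R does not show which genotype had the larger fall. R was also lower in ICC8261 for LOC101504188 (-2.20 in ICC283 against -2.66), LOC101497548 (-2.09 against -2.48) and LOC101503638 (-2.28 against -2.38). The lowest R that the added 5 allowed them in ICC283 was -4.14, -3.64 and -3.08.

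Single libraries ordered the members in the same way for most genes. ICC283 well-watered library 1 was the lowest of its group for 59 of 72 members, and well-watered library 3 the highest for 48. ICC283 drought library 3 was the highest of its group for 63, and ICC8261 drought library 3 for 64. Over all tested genes those libraries were lowest or highest for 34.7%, 39.2%, 40.5% and 36.3% of genes. ICC8261 drought library 3 also decides how many genes the rule finds, 156 without it, and 38 were found without ICC8261 drought library 2.

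The authors' deposited tables, built on the same columns, call 68 of the 72 in each genotype at an adjusted p under 0.05 with DESeq2. Their edgeR lists hold 69 of them in ICC283 and all 72 in ICC8261. In the quasi-likelihood fit of the 8 agreed libraries, 68 members were called lower under drought in ICC283 and 44 in ICC8261, where 21.1% and 6.37% of the 18750 tested genes were called lower. Because the rule chose the genes on this difference, nothing is read from these counts.

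The rule applies the same threshold to both genotypes, but fewer genes reach it in ICC8261. The order of R among the members therefore depends in part on the rule. The difference between genotypes was tested within limits. The rule used the same libraries, and it asks for a level in both genotypes. The average over treatments also holds part of the difference between the genotypes' drought effects, which the rule used in part. R was lower in ICC283 for 66 of the 72 genes. A higher average in ICC8261 is therefore not independent of how the genes were chosen. All 72 genes passed the filter on low counts. Averaged over treatments, in the 8 agreed libraries, 50 members were higher in ICC8261 than in ICC283 and 1 was lower (edgeR quasi-likelihood test with Benjamini-Hochberg adjustment over 18750 genes, 2 libraries a group). Over all tested genes 16.7% were called higher in ICC8261 and 16.3% lower, 33.0% in all. The median log2 fold change was 1.90 over the members and 0.01 over all tested genes. The difference depends on the labels of the libraries, since with the count files' labels none of the members was called, 2 having an unadjusted p under 0.05. With those labels 3.96% of all tested genes were called. With the tables' labels for all 12 libraries 36 members were called in either direction, beside 20.8% of all tested genes. Without ICC283 well-watered libraries 1 and 2, which leaves 1 library in that group, fewer members and fewer of all tested genes were called. The median log2 fold change over the members was then 0.96.

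Under well-watered conditions 19 members were higher in ICC8261 and 3 lower, against 11.3% and 15.3% of all tested genes, with a median log2 fold change of 0.90 over the members. These calls rest on few libraries. Fewer members were called without ICC283 well-watered library 1, or without ICC8261 well-watered library 2 or 3, and fewer of all tested genes too. Those fits leave 1 library in a group, and their median log2 fold change over the members was 0.49, 0.89 and 1.03. With the tables' labels for all 12 libraries 10 members were called in either direction, beside 12.7% of all tested genes. Without ICC283 well-watered libraries 1 and 2, which stand apart, 1 library was left in that group and the median was 0.16. Fewer members and fewer of all tested genes were called there.

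Under drought 41 members were higher in ICC8261 and 1 was lower, against 10.9% and 8.04% of all tested genes. This difference is the well-watered difference plus the difference between the genotypes' drought effects, which the rule used in part. The median log2 fold change was 2.95 as fitted, and 2.84 over 71 members when the 5 with 0 counts in both agreed ICC283 drought libraries were set to the ratio that 3 counts over those libraries would allow. LOC101504245, with 0 counts in all 4 agreed drought libraries, gives no ratio. Fewer members were called without ICC283 drought library 1 or 2, or without ICC8261 drought library 3, and fewer of all tested genes too. Those fits leave 1 library in a group, and their median log2 fold change over the members was 2.81, 3.65 and 2.11. With the tables' labels for all 12 libraries 26 members were called in either direction, beside 10.3% of all tested genes. Of the 71, 20 were called under both treatments, 22 under drought alone, 2 well-watered alone and 27 under neither. The same split was not made over all tested genes, so nothing is read from these counts. Whether the genotype difference itself depended on treatment was not tested, because the members were chosen on it.

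With the tables' labels, all 3 ICC8261 drought libraries lay above all 3 of ICC283 for 35 members and below for 1, while over all tested genes this was so for 16.9% and 16.8%. Well-watered, they lay above for 23 members and below for 5, against 15.1% and 17.4%. The median ratio of group means, ICC8261 over ICC283, was 1.54 well-watered and 3.49 under drought. The summed level of the 4 chloroplast genes differed between the genotypes as well, from 34277 to 36799 CPM in well-watered ICC8261 and from 52379 to 62225 CPM in well-watered ICC283. Under drought it was from 45346 to 60293 CPM and from 63986 to 66001 CPM, and its part in these differences was not tested.

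**Figure D4:**
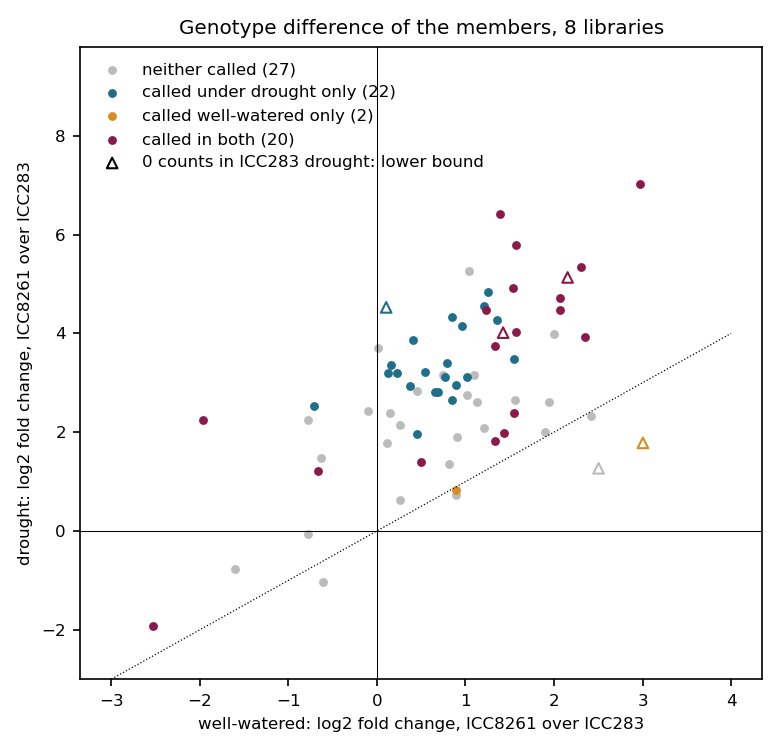
Log2 fold change of ICC8261 over ICC283 well-watered (horizontal) and under drought (vertical) for 71 members in the 8 agreed libraries, coloured by whether each treatment's difference was called. Triangles are the 5 genes with 0 counts in ICC283 drought, drawn at their lower bound, and most points lie above 0 on both axes and above the dotted line of equal differences.

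The members with the smallest adjusted p for the genotype average were LOC101496585, LOC101506119, LOC101508692, LOC101495168, LOC101500652 and LOC101492519, all higher in ICC8261. None of these 6 calls was lost when any 1 of the 8 libraries was left out, and all were lost with the count files' labels. LOC101508692 and LOC101492519 also lost theirs with the tables' labels for all 12 libraries. With the tables' labels and without ICC283 well-watered libraries 1 and 2, only LOC101495168 and LOC101500652 kept theirs. LOC101496585 was higher by 1.66 ± 0.17 on the log2 scale (SE, adjusted p = 0.00034 by edgeR). The well-watered difference was 0.13 ± 0.19 (SE, adjusted p = 0.656 by edgeR) and the drought difference 3.20 ± 0.28 (SE, adjusted p = 0.000298 by edgeR), and whether they differ was not tested. LOC101496585 was also named in part for its difference in R between the genotypes, taken from these same libraries.

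LOC101506119 was at 55.0, 68.3 and 86.4 CPM in well-watered ICC283 and at 113, 87.7 and 85.5 CPM in well-watered ICC8261, so that the highest ICC283 value lies just inside the ICC8261 range. Under drought it was at 8.97, 10.03 and 15.05 CPM against 26.9, 17.9 and 23.5 CPM, with no overlap. The genotype average was 0.95 ± 0.11 (SE, adjusted p = 0.000434 by edgeR).

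LOC101508692 was higher in ICC8261 by 3.91 ± 0.33 on the log2 scale (SE, adjusted p = 0.000518 by edgeR). The agreed ICC283 drought libraries stood at 1.01 and 0.977 CPM, while ICC283 drought library 3, which that fit leaves out, reached 33.5 CPM and lay above the lowest ICC8261 drought value of 29.6 CPM. With all 12 libraries under the tables' labels the average was 1.72, and without ICC283 well-watered libraries 1 and 2 it was 1.31, and it was called in neither.

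LOC101500652 was at 4.68, 9.35 and 14.1 CPM in well-watered ICC283 and at 32.4, 28.8 and 29.3 CPM in well-watered ICC8261. It was at 0.201, 0 and 0.439 CPM against 3.24, 1.34 and 2.37 CPM under drought. The genotypes did not overlap under either treatment, and the average difference was 3.39 ± 0.40 (SE, adjusted p = 0.00062 by edgeR).

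LOC101495168 had 0 counts in both agreed ICC283 drought libraries and 0.110 CPM in library 3. In ICC8261 it was at 2.19, 1.43 and 2.37 CPM under drought, which in the agreed libraries is at least 16.2-fold higher, taking 3 counts over both ICC283 libraries as the floor. Well-watered, it was at 2.60, 4.91 and 5.32 CPM in ICC283 and at 14.4, 10.6 and 9.42 CPM in ICC8261, again without overlap.

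Averaged over treatments 4 members had a negative log2 fold change. Of these LOC101498658 alone was called lower in ICC8261, by -2.22 ± 0.31 (SE, adjusted p = 0.00346 by edgeR). It was at 487, 249.9 and 131 CPM in well-watered ICC283 and at 52.0, 64.4 and 62.9 CPM in well-watered ICC8261. Under drought it was at 53.5, 82.0 and 42.1 CPM in ICC283 and at 12.02, 6.21 and 23.7 CPM in ICC8261, so the drought range of ICC283 overlaps the well-watered range of ICC8261.

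Well-watered, LOC101498814 and LOC101498965 were also lower in ICC8261, by -1.97 ± 0.23 and by -0.67 ± 0.13 (SE, adjusted p = 0.00114 and 0.00729 by edgeR). Under drought both were higher there, by 2.25 ± 0.33 and by 1.22 ± 0.17 (SE, adjusted p = 0.00305 and 0.00183 by edgeR). With the count files' labels the drought differences were 0.07 and -0.11, and neither was called. Both well-watered calls were lost with the tables' labels and without ICC283 well-watered libraries 1 and 2, where no member was called. LOC101498814 was at 186, 132 and 81.7 CPM in well-watered ICC283 and at 70.6, 43.4 and 37.6 CPM in well-watered ICC8261, and under drought at 1.91, 2.13 and 4.17 CPM against 7.21, 5.79 and 12.1 CPM. The order of the genotypes was thus opposite under the 2 treatments, with no overlap in either. LOC101498814 was named in part for its difference in R between the genotypes, taken from these same libraries. Whether the order depends on treatment was not tested.

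EXPA1 was higher in ICC8261 on average by 1.65 ± 0.39 (SE, adjusted p = 0.0201 by edgeR). That call was lost without ICC8261 drought library 3 (1.44, adjusted p = 0.0792 by edgeR), without ICC8261 well-watered library 2 (1.61, adjusted p = 0.0621), with no filter on low counts (1.65, adjusted p = 0.064), and with the tables' labels for 12 libraries (0.92, adjusted p = 0.122) or the count files' labels (0.64, adjusted p = 0.724). It was lost too with the tables' labels and without ICC283 well-watered libraries 1 and 2, at 0.51 with an adjusted p of 0.437 by edgeR, where the well-watered difference was -0.25. In the agreed libraries the calls within a treatment depended on the fit. Neither passed the threshold without a replicate block, with 1.21 ± 0.46 well-watered and 2.09 ± 0.63 under drought (SE, adjusted p = 0.0982 and 0.0639 by edgeR). Both passed with the block (adjusted p = 0.0314 and 0.0017 by edgeR) and with DESeq2 (adjusted p = 0.0155 and 0.000214).

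Some members lie next to each other in the reference annotation. LOC101491845, LOC101492179 and LOC101492519 follow one another with no gene between them, and LOC101492853 and LOC101493185 form a pair. Whether they are copies of one another, so that their reads could be shared between them, was not analysed here. In the triplet, LOC101492519 was by far the rarest in counts, at 3.22, 7.25 and 9.92 CPM in well-watered ICC283 and 17.3, 16.4 and 14.4 CPM in well-watered ICC8261.

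The drought difference did not extend evenly to the genes around them. On one side of the triplet LOC101491539 had R at -2.15 in ICC283 and -1.33 in ICC8261, and the next gene beyond it, LOC101490900, 0.36 and -0.54. On the other side LOC101492849 had R at 0.07 and -0.10. Beside the pair, LOC101493939 had R at -2.21 and -1.55, but its counts were low, with at most 2.92 CPM in any library, and LOC101491439 on the other side had 0.64 and 0.44.

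**Figure D5:**
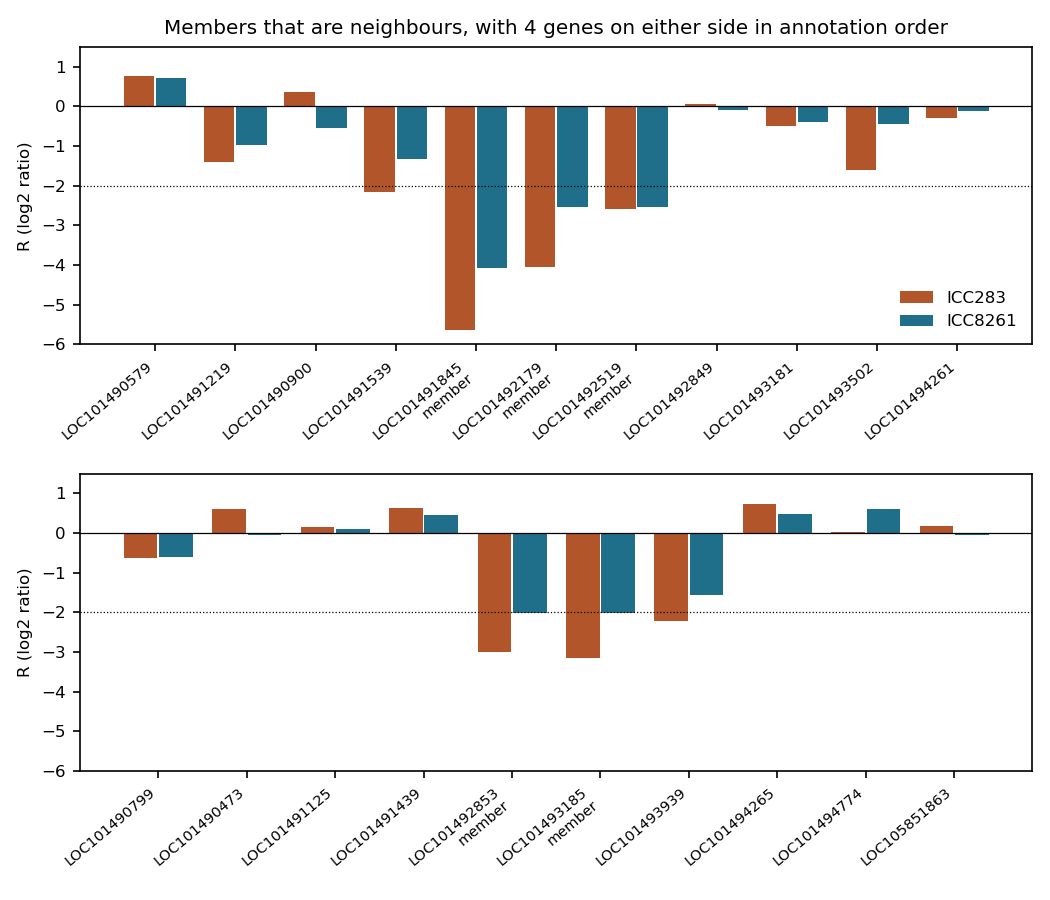
R in ICC283 (brown) and ICC8261 (blue) for the 5 members that are neighbours and for up to 4 genes on either side in annotation order, with the threshold of -2 dotted. The bars fall below the threshold in both genotypes only at the members, with LOC101491539 and LOC101493939 beyond it in ICC283 alone.

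ICC283 drought library 3 held the highest level of its group for each of these 5 genes. LOC101492853 was at 1.31, 5.15 and 29.4 CPM in ICC283 under drought and LOC101493185 at 0.403, 2.93 and 12.3 CPM. In ICC8261 they were at 23.6, 9.40 and 37.2 CPM and at 27.4, 11.4 and 39.7 CPM. The drought ranges of the genotypes overlap for both genes when library 3 is counted and do not overlap without it.

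Other genes of cell growth can be followed through their symbols, in lists of which the members were chosen with these data known. Besides EXPA1, whose drought difference the rule fixed, 5 cell wall symbols were tested, of which 4 were lower under drought in ICC283 and 1 in ICC8261, beside 21.1% and 6.37% of all tested genes. The gene called in both was Bglc-2, whose log2 fold change was -1.56 in ICC283 and -1.33 in ICC8261. The pectin methylesterase symbol pme1 had -0.99 in ICC283 and 0.15 in ICC8261. CA-EXPA2, a further expansin, had -1.74 in ICC283, where it was called, and -0.89 in ICC8261, where its adjusted p by edgeR was 0.12. XTH1, a xyloglucan endotransglucosylase, was at 23.6, 104 and 189 CPM in well-watered ICC283 and at 1.41, 5.86 and 13.6 CPM there under drought. Its log2 fold change in ICC283 was -4.10 (adjusted p = 0.0401 by edgeR). In ICC8261 it was at 15.4, 11.1 and 57.3 CPM under drought. The highest of these reaches the well-watered range of 34.0 to 63.5 CPM in ICC8261. CA-EXPA4 was called in neither genotype. XTH1 and CA-EXPA4 are among the 4 identifiers that the rule left out by name.

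Of the 3 cytoskeleton symbols, all were called lower under drought in ICC283 and 2 in ICC8261, beside 21.1% and 6.37% of all tested genes. The gene listed as ACTIN (LOC101509704) came nearest to membership. It was at 44.5, 100.2 and 151 CPM in well-watered ICC283 and at 6.45, 11.9 and 15.9 CPM under drought, with R at -3.08. In ICC8261 it was at 98.9, 119.7 and 95.6 CPM well-watered and at 22.6, 16.6 and 43.2 CPM under drought, with R at -1.92, just short of the threshold. Its log2 fold change in ICC8261, -1.71, was not called (adjusted p = 0.0685 by edgeR). The second actin, LOC101503086, was lower by -0.57 in ICC283 and -0.42 in ICC8261. TUBB, a tubulin, was lower under drought by -0.98 in ICC283 and -0.52 in ICC8261 (adjusted p = 0.00118 and 0.0469 by edgeR).

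Among the 70 genes listed under a UDP-glycosyltransferase symbol, enzymes that add sugars to hormones and secondary metabolites, 50 were tested. Under drought 20 were lower and 3 higher in ICC283, beside 21.1% and 17.1% of all tested genes. In ICC8261 2 were lower and 4 higher, beside 6.37% and 9.09%. UGT85K8 is the single gene listed by symbol that meets the thresholds of the rule, with R at -3.85 and -2.70, and it is not counted among the 72 because its identifier does not begin with LOC. Of 20 tested auxin response factors, which switch on genes in response to the growth hormone auxin, 3 were lower and 3 higher in ICC283 and 4 were lower in ICC8261. Of 4 phenylpropanoid genes 3 were lower in ICC283 (PAL, CYP73 and IFR) and none in ICC8261, where the log2 fold changes of these 3 were between -0.37 and -0.12. For both lists the shares over all tested genes were 21.1% lower and 17.1% higher in ICC283, and 6.37% lower and 9.09% higher in ICC8261.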

How the data were processed

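RNA sequencing of chickpea leaf gave 12 libraries, 3 in each of 4 groups by genotype and treatment, as paired reads of 150 bases per the labels' protocols. The authors deposited raw counts per gene, 1 file for each library. HTSeq, TopHat2 2.1.1, Cufflinks 2.0.2, Trimmomatic, edgeR and DESeq2 are named in the submitters' processing notes. Genome build, annotation and strand use were not given in the sources used here. Both kinds of comparison table the authors deposited, from DESeq2 and from edgeR, hold log2 fold changes and p-values per the file headers. The deposited DESeq2 tables also hold a column of normalized counts per library, taken here as a signal. Those columns were whole multiples of 1 read within a tolerance of 0.02, and each equalled 1 count file at every shared gene. The number of value columns that were set aside was 0.

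R was computed from the deposited normalized counts with 5 added. The members, gene lists and tests were chosen with earlier results of these data known. For tests, edgeR 4.0.16 (R 4.3.3) was run on the counts of the 8 libraries of agreed treatment. The fit used filterByExpr (minimum count 10, minimum total 15), TMM scaling, 1 model of 4 group means, robust glmQLFit and two-sided glmQLFTest. P-values were Benjamini-Hochberg adjusted over all genes tested, and calls were made at 0.05, over 3 genotype contrasts. CPM are TMM-scaled, and SE is the absolute log2 fold change over the square root of F. DESeq2 1.42.0 was an alternative. On simulated counts for the genotype average over 18440 genes, the fit recovered 88.9% of 90 genes changed by 1 on the log2 scale and 100% of 110 changed by 2, with 6 false calls. The simulation gave every gene the same fixed dispersion, with no drought effect and no library that stands apart. These rates are a check of the code and need not hold for the data.

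Named genes are the 12 members with the lowest mean R, the 6 with the most normalized counts well-watered, the 3 nearest the threshold on either side, up to 6 per direction with the smallest adjusted p for the genotype average, the 6 with the largest difference in R, those in neighbouring groups (at most 2 genes between), and those with 0 counts in every drought library of a genotype. Genes with symbols, LOC101503638, LOC101503597, LOC101504188 and LOC101497548 were named besides. The reference table matched 24398 of the files' features. Sequences and product names of the members were not used here.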

Additional observations from a re-analysis of the deposited data

How the results depend on the processing

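The number of genes the rule finds, 72, was 146 with 1 added in place of 5 and 50 with 10, 286 at R of -1.5 and 15 at -2.5, 89 without separation, 69 on CPM with 0.5 added, 54 in the 8 agreed libraries and 2 with the count files' labels. Leaving out each library in turn gave 38 to 156. Calls between genotypes in either direction were 51 averaged over treatments, 22 well-watered and 42 under drought. Leaving out each replicate gave 39 to 55, 3 to 31 and 17 to 50. The drought count was 17 without ICC283 drought library 1, 25 without library 2 and 25 without ICC8261 drought library 3. Well-watered it was 14 without either ICC283 drought library and 14 with no filter on low counts. With the count files' labels all 3 counts were 0, and 2, 1 and 1 members had an unadjusted p under 0.05. With the tables' labels for 12 libraries the counts were 36, 10 and 26, beside 20.8%, 12.7% and 10.3% of all tested genes. Over all tested genes the share called also fell in most fits that left out a replicate. Without ICC283 well-watered libraries 1 and 2, an alternative chosen after seeing the data, 1 library was left in that group. The median log2 fold change over the members was then 0.96 averaged and 0.16 well-watered, and fewer members were called in both. DESeq2 gave 56, 23 and 56, and upper-quartile scaling 52, 25 and 42. A replicate block, by library number, made the counts 57, 22 and 55, within 1.5 times of those without it. Whether the numbers pair the samples was not settled. Correlations of same-numbered libraries ran from -0.60 to 0.70 by the count files' labels and from -0.12 to 0.43 by the tables'. Those of libraries with different numbers ran from -0.77 to 0.67 and from -0.45 to 0.24. Of the named members, LOC101498965 reversed under drought with the count files' labels, to -0.11. The cause of these changes was not tested. Lists by product name, protein comparisons and promoter motifs were not run, since they need names and sequences not used here. At the depth of these libraries members near 0 CPM under drought cannot be ordered.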
